A study of Homo sapiens with 4 samples.

Results

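MALAT1 and NEAT1 are neighbouring genes for long noncoding RNAs on chromosome 11, and RNA polymerase II (Pol II) peaks in and around them were compared between control and RRN3-silenced ovarian cancer cells. The 2 genes, out of 38899 annotated protein-coding and long noncoding genes, were chosen by their measured Pol II peaks, so their peak numbers, covered shares, widths and score ranks are given as a description and were not tested. Every peak that touched a gene or the 10 kb on either side of it was taken, which gave 15 of the 4014 peaks in the control list and 26 of the 14363 peaks in the RRN3-silenced list.

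The study asked how RRN3, which starts ribosomal RNA transcription by RNA polymerase I, influences transcription by Pol II. Chromatin was immunoprecipitated with an antibody against Pol II in SK-OV-3 cells, a human ovarian cancer line, that stably expressed from a lentiviral vector a hairpin that silences RRN3 (shRRN3) or one aimed at bacterial LacZ as the control (shLacZ). Each hairpin had 1 Pol II library with 1 deposited peak list, so there was no replicate spread with which to compare any difference. Neither the RRN3 hairpin used nor the degree of silencing can be read from the labels and lists, and the input libraries of both hairpins were left aside.

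The RNAs of both genes stay in the nucleus. MALAT1 RNA collects in nuclear speckles, the bodies that hold splicing factors, whereas NEAT1 RNA is the scaffold of paraspeckles, which form on its long transcript and not on its short, polyadenylated one. The long transcripts of both genes end without a poly(A) tail. RNase P cuts the RNA just before a tRNA-like structure, which is released as a small RNA, and a triple helix with an A-rich stretch protects the new 3′ end.

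MALAT1 (ENSG00000251562.11) lay on the plus strand at chr11:65497640-65508073 of GRCh38, a span of 10434 bp, with 66 transcripts in GENCODE release 44. Of these, 5 began within 100 bp of the outer start of the gene and 33 within 100 bp of an inner start at position 65499042, which lies 1402 bp further in. The promoter windows of RefSeq (GRCh38.p14, 250 bases before a start site and 50 from it onwards) are shown for both starts because the peak lists differed at the outer one. The first window, chr11:65497488-65497787, belongs to the outer start and the second, chr11:65498795-65499094, to the inner start, and capitals mark GGGCGG on either strand in the first (CCGCCC when read on the plus strand) and TATAAA in the second.
MALAT1 outer start: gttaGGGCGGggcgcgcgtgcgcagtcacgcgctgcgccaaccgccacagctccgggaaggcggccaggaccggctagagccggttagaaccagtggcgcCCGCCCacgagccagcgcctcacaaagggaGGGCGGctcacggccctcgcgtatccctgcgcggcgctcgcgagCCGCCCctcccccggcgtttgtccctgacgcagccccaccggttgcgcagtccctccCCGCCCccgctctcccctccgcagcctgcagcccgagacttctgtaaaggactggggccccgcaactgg
MALAT1 inner start: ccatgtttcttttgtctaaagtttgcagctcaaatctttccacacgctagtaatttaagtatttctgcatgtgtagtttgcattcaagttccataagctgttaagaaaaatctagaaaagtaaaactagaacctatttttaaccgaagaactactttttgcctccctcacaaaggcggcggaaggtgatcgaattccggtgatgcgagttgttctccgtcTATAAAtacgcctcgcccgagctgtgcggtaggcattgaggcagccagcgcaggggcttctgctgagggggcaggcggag
The outer window had a GC content of 73.7% and held GGGCGG 5 times, whereas the inner window had a GC content of 46.0% and held TATAAA at positions -30 to -25 from its start site. Among 35116 RefSeq promoter windows of this length, 44.95% held GGGCGG and 11.5% held TATAAA on either strand. Such matches describe the letters only. In shLacZ, peaks covered 0 of the 300 bases of the outer window and 214 of the 300 bases of the inner one. In shRRN3, peaks covered all 300 bases of each.

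The tRNA-like small RNAs that mark the processed ends are shown as the landmarks for the 3′ ends of the peaks. The small RNA of MALAT1 (ENSG00000274072, known as mascRNA) lies at chr11:65506117-65506173 inside the annotated gene, and that of NEAT1 (ENSG00000275948, known as menRNA) lies at chr11:65445541-65445598, directly after the annotated gene end. Both are on the plus strand of GRCh38, and capitals mark their longest shared run of 9 bases.
mascRNA: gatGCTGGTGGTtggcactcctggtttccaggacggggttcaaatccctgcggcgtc
menRNA: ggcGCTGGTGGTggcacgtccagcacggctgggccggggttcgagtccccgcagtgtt
They were identical at 41 of 61 aligned columns (67.2%). The small RNA of MALAT1 was fully inside a peak in both lists. The small RNA of NEAT1 was outside every shLacZ peak and fully inside a shRRN3 peak.

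The shLacZ list held 4 peaks at MALAT1, and all of them lay inside the gene. The deposited score, taken here as −log10 of the p-value times 10, was used to rank peaks within a list and, in alternatives, to leave out low-scoring ones. From 5′ to 3′, the first peak was at chr11:65498881-65499764, with a width of 884 bp and a score of 704.66 (rank 35 of 4014). It began 161 bp before the inner start and 1241 bp past the outer one. The second was at chr11:65499934-65502622, with a width of 2689 bp and a score of 984.24 (rank 20). The next was at chr11:65503022-65505976, with a width of 2955 bp and a score of 711.8 (rank 34). The last was at chr11:65506083-65507973, with a width of 1891 bp and a score of 1090.88 (rank 18). Each of the 4 was within the top 1% of the list by score, and 3 of them were at least 1500 bp wide, as were 44 peaks in the whole list. No shLacZ peak touched the outer start, and the last peak stopped 100 bp before the annotated gene end.

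The shRRN3 list held 9 peaks at MALAT1, of which 4 touched the gene, 3 lay upstream and 2 lay downstream. Most of the gene lay in 3 of them. The first of these was at chr11:65498549-65499715, with a width of 1167 bp and a score of 1030.79 (rank 32 of 14363), and it began 493 bp before the inner start. The second was at chr11:65499775-65502665, with a width of 2891 bp and a score of 2003.27 (rank 10). The last, at chr11:65502667-65508191, was 5525 bp wide with a score of 3086.66 (rank 5). It spanned both 3′ peaks of shLacZ and ran 118 bp past the annotated gene end and 2018 bp past the small RNA. A gap of 1 bp separated the last from the second, and whether these were one enriched stretch was not tested.

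The outer start of MALAT1 was the place in the gene where a peak was called in shRRN3 and none in shLacZ. This peak, at chr11:65496880-65497986, was 1107 bp wide with a score of 84.35 (rank 5750), far below the peaks in the gene body. In the window of 1 kb on each side of the outer start, peaks covered 0% in shLacZ and 59.9% in shRRN3. Between the outer and the inner start they covered 11.5% and 59.9%. The 5 flanking shRRN3 peaks scored between 60.87 and 82.54, and with the outer start peak they filled 26.2% of the 10 kb upstream and, with the 3′ gene peak, 7.56% of the 10 kb downstream. In shLacZ both flanks were without a peak. With only the 3920 highest-scoring shRRN3 peaks on the primary chromosomes kept, which is the number shLacZ has there, the outer start peak and the 5 flanking peaks were all lost and 3 of the 9 peaks remained.

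**Figure D1:**
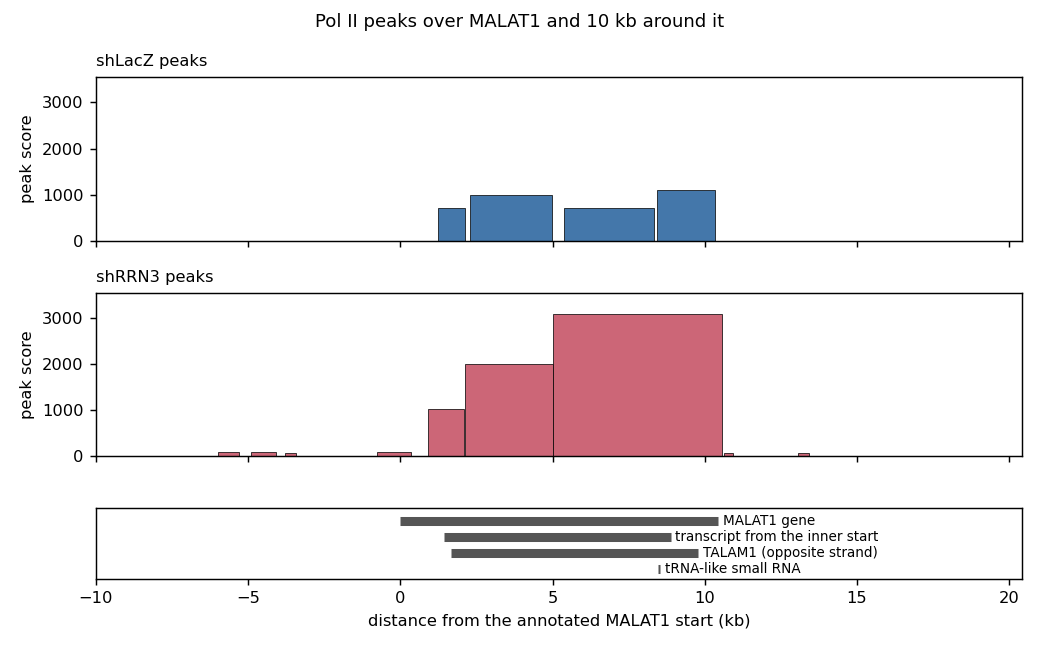
Peaks at MALAT1 in shLacZ and shRRN3, plotted as bars over their width against distance from the annotated gene start, with height giving the deposited score and annotated features drawn beneath. The gene body is filled by high-scoring peaks in both lists, while the peak across the outer start, with a score of 84.35, is in shRRN3. Scores depend on depth and are not compared between lists.

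Peaks covered 8419 bp (80.7%) of MALAT1 in shLacZ and 9812 bp (94.0%) in shRRN3. From the inner start to the small RNA the covered share was 90.5% in shLacZ and 99.2% in shRRN3, and from the small RNA to the gene end it was 94.7% and 100%. Both lists covered the same 8370 bp, 99.4% of the bases covered in shLacZ and 85.3% of those covered in shRRN3. A further 1442 bp (13.8% of the gene) was covered in shRRN3 alone, 49 bp in shLacZ alone, and 573 bp in neither. TALAM1, an antisense RNA of MALAT1 annotated at chr11:65499312-65507432 on the minus strand, was covered at 91.7% and 99.3%. ChIP peaks carry no strand, so Pol II on MALAT1 and on TALAM1 cannot be told apart.

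In shLacZ the peaks of MALAT1 broke off shortly before the small RNA. This break of 106 bp, chr11:65505977-65506082, is shown with the 34 bases that join it to the small RNA, since it lay beside the processed end. Capitals mark runs of at least 5 A or T.
Break in shLacZ: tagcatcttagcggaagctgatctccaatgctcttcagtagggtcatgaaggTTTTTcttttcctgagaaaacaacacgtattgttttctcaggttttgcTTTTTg
From the break to the small RNA: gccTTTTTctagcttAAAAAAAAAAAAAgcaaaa
The break had a GC content of 39.6%, close to that of the whole gene (42.0%). The bases right before the small RNA include the A-rich stretch, which lay inside a peak in both lists. In shRRN3 the whole break was inside the widest MALAT1 peak. The other shLacZ gaps inside the gene measured 1241 bp before the first peak, 169 bp, 399 bp and, at the gene end, 100 bp.

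NEAT1 (ENSG00000245532.11) lay on the plus strand at chr11:65422774-65445540 of GRCh38, a span of 22767 bp with 9 annotated transcripts. The annotated short transcript covers the first 3684 bp and the long transcript runs from position 65422798 to the gene end. Its promoter sequence is not shown.

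The shLacZ list held 11 peaks at NEAT1, 10 touching the gene and 1 upstream, with scores from 54.51 to 618.64 (median 105.82) and widths from 223 to 1762 bp. The highest-scoring peak lay across the start at chr11:65422653-65424414, with a width of 1762 bp and a score of 618.64 (rank 41 of 4014). It began 121 bp before the annotated start. The next in score was at chr11:65426589-65428027, past the short transcript, with a width of 1439 bp and a score of 281.1 (rank 134). Between these lay one peak with a score of 123.68 and then a gap of 1379 bp, chr11:65425210-65426588. In this gap 6 of the 8 shorter transcripts of NEAT1 have their annotated ends. Longer gaps of 2284 bp (chr11:65430715-65432998) and 2067 bp (chr11:65435206-65437272) lay further into the gene, past all of these ends. Whether the gap relates to the ends was not tested. The last shLacZ peak, with a score of 54.51, ended 14721 bp past the start, and the remaining 8045 bp of the gene held none.

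The shRRN3 list held 17 peaks at NEAT1, 16 touching the gene and 1 downstream, with scores from 57.73 to 1083.93 (median 129.1) and widths from 316 to 3595 bp. The 3 highest-scoring ones followed each other from the start. The first was at chr11:65422206-65424860, with a width of 2655 bp and a score of 1083.93 (rank 30 of 14363). The second was at chr11:65425013-65428607, with a width of 3595 bp and a score of 1035.2 (rank 31), and it spanned the annotated end of the short transcript. The next was at chr11:65428632-65431915, with a width of 3284 bp and a score of 653.84 (rank 76). The 13 other peaks inside the gene or across its end were lower, and the highest of them was at chr11:65437618-65438850 with a score of 240.34. In the shRRN3 list shortened in the same way, 9 of the 17 peaks remained.

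In the full lists, the 3′ end of NEAT1 was where covered shares differed most when the gene was cut into 10 equal bins. Bin 2 was nearly as far apart, at 39.4% in shLacZ and 100% in shRRN3. The order of the bins was not examined with the reduced shRRN3 list. In the last 8045 bp, where shLacZ had no peak, 7 shRRN3 peaks touched the gene and covered 69.3% of the stretch. Their scores, with that of the downstream peak, ranged from 57.73 to 240.34, and 3 of these 8 peaks remained in the reduced list, in which 40.1% of the stretch was covered. The peak across the gene end, at chr11:65444479-65446857, was 2379 bp wide with a score of 203.82 (rank 865) and ran 1317 bp past the gene end and 1259 bp past the small RNA. Within 0.5 kb of the gene end, peaks covered 0% in shLacZ and 100% in shRRN3. MIR612, a microRNA gene inside the 3′ part of NEAT1, was covered at 0% and 79.0%. In the 10 kb downstream the covered share was 0% in shLacZ and 27.96% in shRRN3, and in the 10 kb upstream it was 4.83% and 5.68%.

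**Figure D2:**
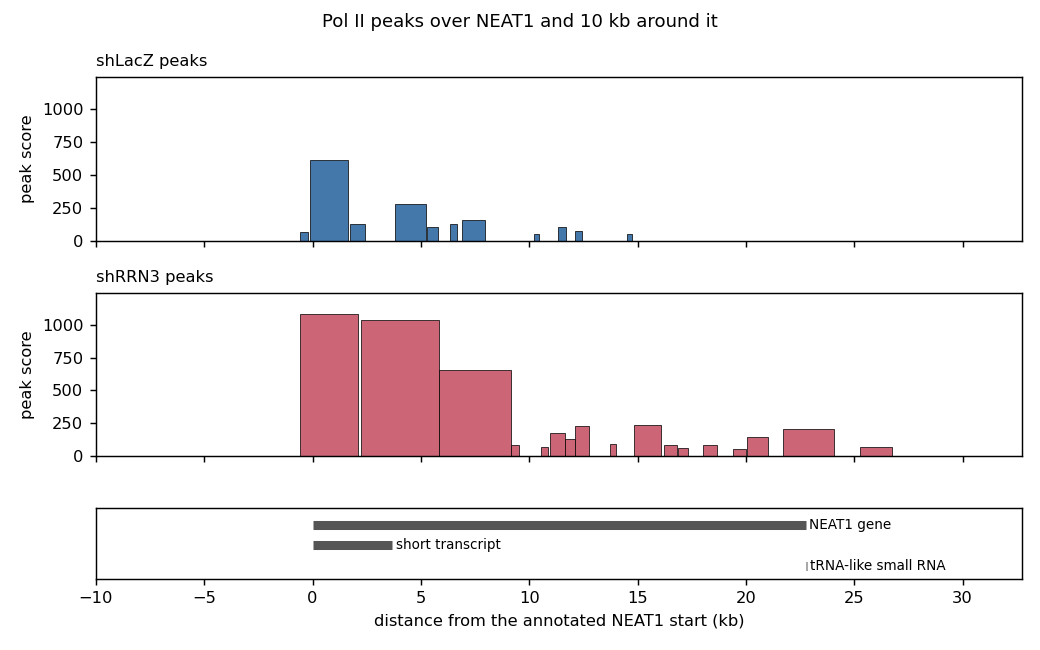
Peaks at NEAT1 in shLacZ and shRRN3, plotted as bars over their width against distance from the annotated gene start, with height giving the deposited score and annotated features drawn beneath. In both lists the highest peak lies across the start (618.64 and 1083.93), and the peaks past 14721 bp are in shRRN3. Scores depend on depth and are not compared between lists.

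Peaks covered 6820 bp (30.0%) of NEAT1 in shLacZ and 17289 bp (75.9%) in shRRN3. Within 1 kb of the start the shares were close, at 74.2% and 78.4%. Over the short transcript they were 63.6% and 95.9%, and over the 19083 bp past it they were 23.5% and 72.1%. Both lists covered the same 6186 bp, which was 90.7% of the bases covered in shLacZ and 35.8% of those covered in shRRN3. A further 11103 bp (48.8% of the gene) was covered in shRRN3 alone and 634 bp in shLacZ alone. When peaks were paired only if they shared at least 50% of both, 1641 of the shared bases remained, since single wide shRRN3 peaks lay over several narrower shLacZ peaks. With the reduced shRRN3 list NEAT1 was covered at 61.3% and MALAT1 at 90.7%.

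Divided into 10 equal bins from 5′ to 3′ of their annotated spans, the genes had opposite shapes in shLacZ. The first bin of MALAT1 was covered at 0% and the other 9 at 77.6% to 100%. That first bin lies wholly before the inner start, so the 5′ part of the contrast depends on the outer bound of MALAT1. The first bin of NEAT1 was covered at 95.9%, bins 2 to 7 at 9.80% to 68.3%, and the last 3 at 0%. In shRRN3 the first bin of MALAT1 was covered at 46.1% and the others at 95.3% to 100%, whereas NEAT1 was covered at 93.3% to 100% in its first 4 bins and at 50.2% to 69.3% in the other 6. MALAT1 was thus nearly filled in both lists apart from its 5′ end. NEAT1 was filled at its 5′ end in both, with a shorter filled stretch in shLacZ. The mean absolute difference between MALAT1 and NEAT1 over these 20 values was 49.2 percentage points.

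**Figure D3:**
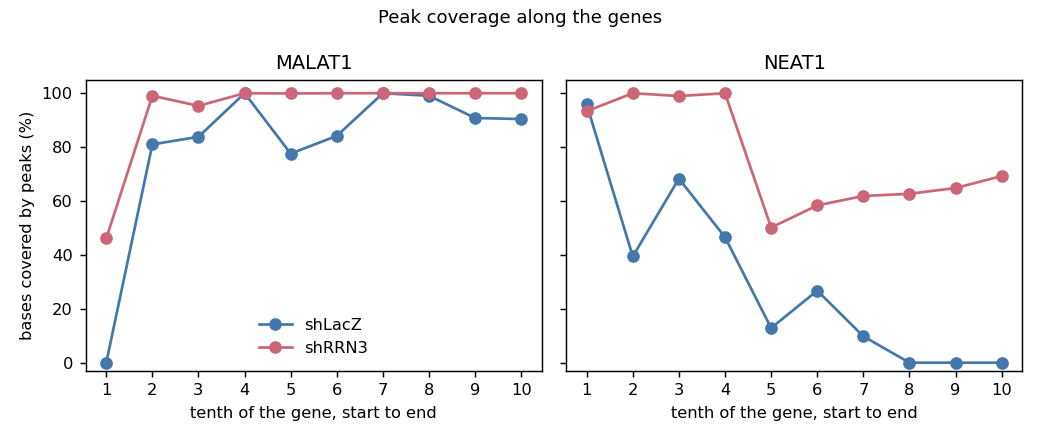
Share of bases covered by peaks (%) in 10 equal bins of MALAT1 and NEAT1 from 5′ to 3′, for shLacZ and shRRN3. The first bin of MALAT1 is at 0% in shLacZ and 46.1% in shRRN3, and the last 3 bins of NEAT1 are at 0% in shLacZ and at 62.7% to 69.3% in shRRN3.

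The base composition of the covered and uncovered bases went in opposite directions in the genes. In MALAT1 the covered bases had a GC content of 41.0% in shLacZ and 41.6% in shRRN3, below the 46.5% and 48.7% of the uncovered bases. Most of these uncovered bases lay in 1 gap before the inner start, 1241 of 2015 bases in shLacZ and 562 of 622 in shRRN3. In NEAT1 the covered bases had 47.6% and 44.5%, above the 42.6% of the uncovered bases in each list.

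The shRRN3 list was the longer one over the whole genome, with 3.58 times as many peaks and 4.80 times as many covered bases on the primary chromosomes (1.61 Mb and 7.75 Mb). Its peaks were also wider, with a median of 432 bp against 304 bp. Depth is unknown from the lists, and its part in the differences at MALAT1 and NEAT1 was not tested. MALAT1 and NEAT1 both had a peak in the gene or the 10 kb around it in both lists, as did 12.0% of all protein-coding and long noncoding genes in shLacZ and 32.1% in shRRN3. Since the genes were chosen by these peaks, nothing is read from that count. Their peaks took a smaller share of the longer list, at 0.522% of all peak bases in shLacZ and 0.170% in shRRN3 for MALAT1, and 0.453% and 0.267% for NEAT1.

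The covered share of MALAT1 and NEAT1 was set beside that of the 32695 protein-coding and long noncoding genes of 2 kb or longer. In shLacZ the covered share reached that of MALAT1 in 3 genes and that of NEAT1 in 20, and in shRRN3 in 6 and 10 genes, counting the gene itself. Each of these counts also includes TALAM1, which lies inside MALAT1 and is covered by the same peaks, so the counts are not of separate loci. The median covered share of genes with a peak was 0.721% in shLacZ and 1.29% in shRRN3. A covered share of at least 25%, which both genes had in both lists, was seen in 0.0918% of genes in shLacZ and 0.765% in shRRN3.

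**Figure D4:**
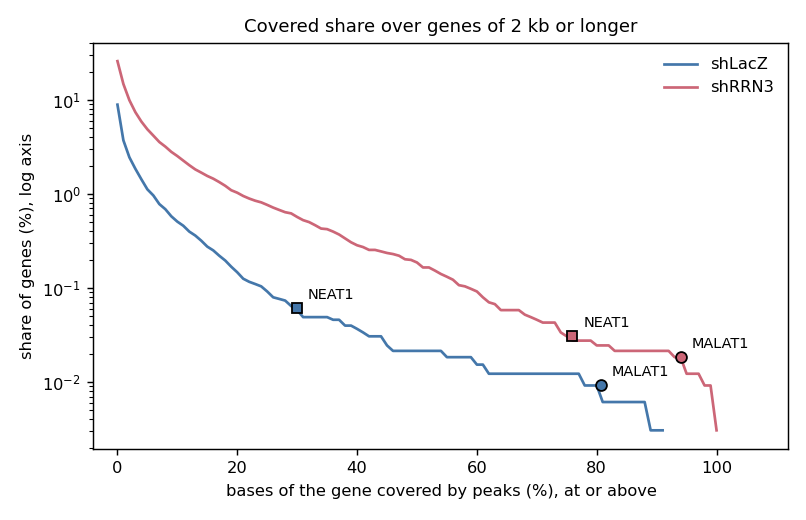
Percent of protein-coding and long noncoding genes of 2 kb or longer (log axis) whose covered share reached the level on the horizontal axis (%), for shLacZ and shRRN3, with MALAT1 and NEAT1 marked. MALAT1 lies at 80.7% in shLacZ and 94.0% in shRRN3, and NEAT1 at 30.0% and 75.9%, points which 0.0612% of genes or fewer reached.

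The covered share was higher in shRRN3 by 13.4 percentage points in MALAT1 and by 46.0 in NEAT1. Both differences were above 10 points, as they were in 2.00% of all genes of this length. The median difference among the 8825 genes with a peak in either list was 0.945 points, and 8128 of them were higher in shRRN3 and 696 lower. A difference at least as large as that of MALAT1 was seen in 446 of these genes (5.05%), and one at least as large as that of NEAT1 in 32 (0.363%). As a ratio, the covered share in shRRN3 was 1.17 times that in shLacZ for MALAT1 and 2.54 times for NEAT1. The median ratio over the 2558 genes with peaks in both lists was 2.11, with quartiles of 1.28 and 3.92. NEAT1 lay between these quartiles and MALAT1 below the lower one, and MALAT1 was already covered over most of its length in shLacZ.

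The genes whose covered shares along 10 bins in both lists were most like those of MALAT1, among 8822 candidates, were LINC02082, at a mean absolute difference of 9.94 percentage points, SNHG1 at 19.8 and SNHG3 at 24.9, followed by TNFRSF12A at 32.7 and EIF1 at 35.2. LINC02082, a long noncoding RNA gene, was covered at 88.0% in shLacZ and 94.9% in shRRN3. SNHG1 and SNHG3, which host small nucleolar RNAs in their introns, were covered at 77.3% and 61.1% in shLacZ and at 100% and 97.7% in shRRN3. The genes most like NEAT1 were protein-coding, with PLK2, a protein kinase, at 21.1 points, EIF4A2, a translation initiation helicase, at 21.3, and RPLP0, a ribosomal protein, at 21.8. They were followed by SRSF2, a splicing factor, at 22.4 and F3, which encodes tissue factor, at 22.9. These distances rest on 20 values from 1 library per hairpin, with neighbouring bins sharing peaks. Bins are shares of each gene's own length, and the 5 genes named for NEAT1 were 3219 to 12587 bp long against its 22767 bp. SNHG1 (3976 bp), SNHG3 (4913 bp), TNFRSF12A (3939 bp) and EIF1 (3784 bp) were also shorter than MALAT1 (10434 bp), whereas LINC02082 was longer (22397 bp). The likeness is thus one of shares and not of covered bases.

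Of the 12 protein-coding genes within 100 kb of MALAT1 or NEAT1, 1 had a peak inside in shLacZ and 2 did in shRRN3. Among the 32695 protein-coding and long noncoding genes of 2 kb or longer, 2919 had one in shLacZ and 8464 in shRRN3. Nothing is therefore read from the counts for the neighbours. FRMD8, which ends 9249 bp before NEAT1, had none inside in either list. MAP3K11, a kinase gene, was covered at 3.82% in shRRN3, and EHBP1L1 had a start peak in shRRN3 with a score of 56.96. The gene ENSG00000285816 had a start peak in both lists, with scores of 61.44 and 63.36.

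The 52099 bp between NEAT1 and MALAT1 were touched by 1 peak in shLacZ and 7 in shRRN3, which covered 2.27% and 14.2% of the stretch. Those in shRRN3 include the peak across the NEAT1 end and the peak across the outer MALAT1 start. The peaks just outside the 10 kb limit were chr11:65476986-65478170 in shLacZ, with a score of 70.43, and chr11:65476273-65478274 in shRRN3, with a score of 144.15. They overlapped each other and lay 19470 bp and 19366 bp before the MALAT1 start. Just inside the limit, the farthest peak from either gene was the shRRN3 peak 5298 bp before MALAT1, with a score of 82.54. At NEAT1 the farthest were 215 bp away in shLacZ (score 63.01) and 2482 bp away in shRRN3 (score 71.46).

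Genes for proteins that build the bodies in which MALAT1 and NEAT1 RNA reside, or that act on their 3′ ends, were examined. A peak midpoint was sought within 1 kb of the start, taken as the outer annotated 5′ bound of the gene. A peak at a start further in can be missed by this rule, as at MALAT1 in shLacZ. Over all protein-coding genes a peak within 1 kb of the start was present in 7.56% in shLacZ and 23.7% in shRRN3. It was present in both in 1284 genes, in shLacZ alone in 231 and in shRRN3 alone in 3469. Most shLacZ start peaks thus had a shRRN3 counterpart over all genes, and nothing is read from the overlaps below. Among 34 genes for paraspeckle proteins it was present in 13 in shLacZ (38.2%, exact 95% Clopper-Pearson interval 22.2 to 56.4) and in 21 in shRRN3 (61.8%, 43.6 to 77.8), with 12 in both. The intervals cover counting error only. High scores in shLacZ were at SFPQ (153) and RBMX (120), and in shRRN3 at HNRNPA1 (650) and SFPQ (410), all of which encode RNA-binding proteins. SFPQ pairs with NONO in the paraspeckle core, and NONO, named after its values were seen, had no start peak in either list. A peak did lie in NONO or the 2 kb around it in shRRN3, and none did in shLacZ. Among 26 genes for nuclear speckle proteins, a start peak was present in 13 in shLacZ (50%, 29.9 to 70.1) and in 18 in shRRN3 (69.2%, 48.2 to 85.7), again with 12 in both. SRSF3 (277), SRSF7 (275) and SRSF2 (205), which encode splicing factors, scored highest in shLacZ. SON (478), which encodes a scaffold protein of speckles, SRSF7 (421) and SRSF2 (363) did so in shRRN3.

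Of 14 genes for factors that act at the 3′ end of MALAT1, 1 had a start peak in shLacZ (7.14%, 0.181 to 33.9) and 7 did in shRRN3 (50%, 23.0 to 77.0). The shares over all protein-coding genes were 7.56% and 23.7%, inside these intervals. The 3 lists of genes were chosen with earlier results of these data known, and an interval is not a test of them. Their counts are therefore not read as a trait of their genes. The one in shLacZ was POP4, a subunit of RNase P, with a score of 50.76. In shRRN3 these were POP4 (127.79), POP5 (74.39) and POP7 (59.05) of RNase P, ELAC1 (62.59) and ELAC2 (50.54), which encode RNase Z enzymes, TRNT1 (101.3), which adds CCA ends, and METTL16 (87.06), which binds the MALAT1 triple helix. With the reduced shRRN3 list the counts for the 3 lists of genes were 14, 12 and 1, against 13, 13 and 1 in shLacZ. The share over all protein-coding genes in the reduced list is not given, so these counts have no background beside them. As a check of the cell type, start peaks were present at 0 of 4 genes of epithelial or SK-OV-3 identity in shLacZ and at 3 of 4 in shRRN3 (EPCAM, KRT8 and KRT18, the last pair sharing 1 peak), with none at ERBB2. None of 5 marker genes of other cell types had a start peak in either list. A peak did lie in PECAM1, one of these, or the 2 kb around it in shRRN3. ERBB2 had no peak in the gene or the 2 kb around it in either list. The EPCAM peak scored 62.98 and was lost with the reduced shRRN3 list, whereas that of KRT8 and KRT18 was kept. The labelled identity could therefore not be read from these starts in shLacZ and was not settled by them in shRRN3.

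**Figure D5:**
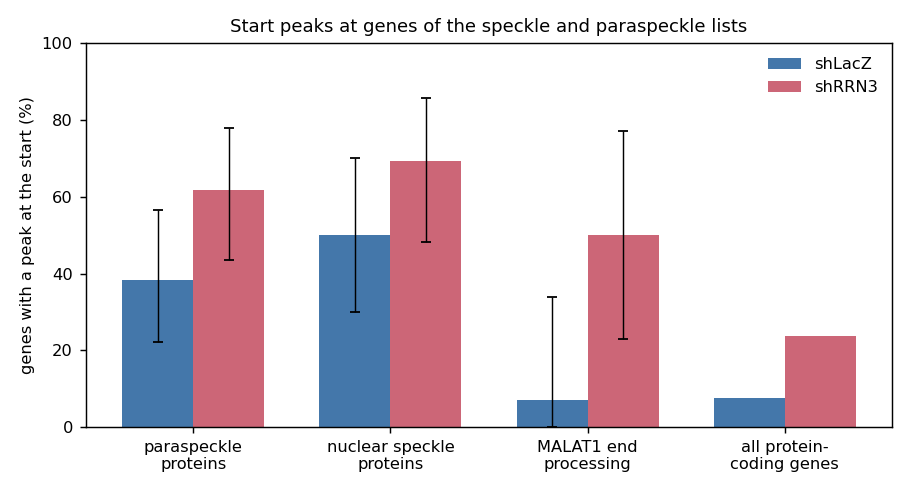
Percent of genes with a peak midpoint within 1 kb of the start in shLacZ and shRRN3, for the paraspeckle, nuclear speckle and 3′ end lists and for all protein-coding genes, with error bars giving exact 95% Clopper-Pearson intervals over the genes of each list. The lists stand at 38.2%, 50% and 7.14% in shLacZ and at 61.8%, 69.2% and 50% in shRRN3, beside 7.56% and 23.7% over all protein-coding genes, which carry no error bar.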

How the data were processed

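Pol II was immunoprecipitated with the ChIP-IT Express Kit and sequenced on a BGISEQ-500 instrument. The authors deposited 1 peak list per library, with coordinates, a peak name that carries the name of the caller MACS, and a score. The scale of this deposited score is not stated and was inferred from its lowest values (50.03 and 50.0) and ceiling of 3100. The submitters' processing notes name hg38, and the chromosome names are GRCh38 sequence versions. Aligner, MACS version, threshold and use of input are not given in the sources used here.

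Starts were shifted to count from 1. Genes came from GENCODE release 44 and promoter windows from RefSeq, which matched 1 of the 2 genes with 2 windows. A gene's covered share was the percent of its span inside merged peaks. No p-value was computed, since each hairpin had 1 library and a peak list holds no read counts. Genes named were MALAT1, NEAT1, genes overlapping them, neighbours within 100 kb, the 5 most alike per gene, the 3 highest-scoring per list and every 3′ end factor with a start peak, and some genes under this rule are not reported here. The members and lists were chosen with earlier results of these data known. Alternatives were a stricter score, a shorter shRRN3 list, other flanks, windows, overlaps and gene bounds. The coverage code was tested on simulated data and recovered the planted bases in 200 of 200 genes. Computation used Python 3.11.15 with pandas 2.3.3, numpy 2.4.6 and scipy 1.17.1, and figures used matplotlib 3.10.9.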

Additional observations from a re-analysis of the deposited data

How the results depend on the processing

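Of 41 alternatives over 16 results, 10 took a covered share outside its exact 95% binomial interval over the gene's bases or changed a count by more than 1.5 times. Such an interval is narrow, so small shifts of a share are among the 10. With the shRRN3 list reduced to 3920 peaks (lowest score 102.86), the covered share in shRRN3 was 90.7% for MALAT1 and 61.3% for NEAT1, the peaks numbered 3 and 9, and 1 gene for a 3′ end factor kept a start peak. In the same list the start peaks fell from 21 to 14 paraspeckle genes and from 18 to 12 nuclear speckle genes, which is within 1.5 times. With a minimum score of 66.05 in both lists, NEAT1 was covered at 27.9% in shLacZ and 71.2% in shRRN3, and 8 of its 11 shLacZ peaks remained. When overlapping peaks had to share 50% of both, 1641 of 6186 shared bases remained at NEAT1 and 6479 of 8370 at MALAT1. With the RefSeq span of MALAT1, an alternative chosen after seeing the data, the covered share was 79.3% in shLacZ and 92.9% in shRRN3. The covered share of both genes was higher in shRRN3 than in shLacZ with the reduced list, the minimum score, the longest transcript and the RefSeq span. The cause of these shifts was not tested. No paired analysis was possible because each hairpin had 1 library. Depth is unknown from the peak lists, so a stretch without a peak is one in which none was called, not one without Pol II, and the difference between hairpins cannot be told apart from the difference between 2 libraries.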
